A study of Solanum lycopersicum with 9 samples.

Results

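Imbibed tomato (Solanum lycopersicum) seeds of an SlLBD40 knockout were compared with wild-type (WT) seeds across all genes of 1 table of expression values. The comparison uses 6 of the 9 RNA libraries of the series, 3 of the SlLBD40 knockout and 3 of WT, all from whole seeds taken after 6 h of imbibition. The other 3 libraries, of an SlWRKY37 knockout at the same time, entered the fit for the estimate of spread and are given side by side in 1 place. No treatment other than imbibition is named, and both groups share it. The labels do not name the cultivar, the way the gene was disrupted or the number of independent knockout lines. Of 40229 rows in the table, 28487 were above 0 in at least 1 of the 6 libraries, and 18346 passed a filter that asked for an average of 1 or more across the 9 libraries.

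LOB domain proteins, the family of SlLBD40, are plant transcription factors known for roles in organ boundaries, lateral roots, secondary growth and responses to nitrogen and to low oxygen. A dry seed holds stored RNAs for reserve, oil body and desiccation proteins, and in the hours after water uptake these decay while respiration, wall loosening and new transcription begin. In tomato the embryo lies in a firm endosperm, whose cap in front of the root tip has walls rich in mannan that weaken before the root emerges.

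Values are expression values taken as FPKM, fragments scaled to transcript length and library size, so that levels of different genes can be compared. Changes are given as the log2 difference of knockout minus WT on the log2(value + 1) scale, ± its standard error, from 3 libraries a group. The test was limma with Benjamini-Hochberg adjustment over the 18346 genes, and a gene was called when its adjusted p was below 0.05. Genes carry the description of the table and the chromosome, and a copy number where several share both. Genes marked † lie outside the rule for named genes and were chosen after their values had been seen. Nothing in the labels says whether replicates are different plants or seed batches, and p-values then reflect only how far these libraries spread.

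The summed value lay between 856291 and 910262 in the 6 libraries, and 24058 to 24507 genes were above 0 in each. No read counts are given, so the depth behind each value is unknown. Pairs of libraries of 1 genotype correlated at 0.9723 to 0.9778, and pairs of different genotypes at 0.9120 to 0.9304; the points are genes and not replicates. The labelled tissue was checked by marker lists drawn by words in the descriptions. The 190 rows matched for seed reserves and drying took 9.39, 8.67 and 7.55% of the WT sums and 3.37, 3.33 and 2.80% of the knockout sums. Of the 95 tested genes among them, 22 were called higher (23.2%, against 18.0% of all genes) and 37 lower (38.9%, against 19.2%). The words also match lipid-transfer type proteins described as 2S albumin superfamily, which need not be reserve proteins. Some of these were among the genes called higher. Genes of green tissue took at most 0.113% of any library, with 13 of 54 tested genes higher and 1 lower, and 2 seed coat markers were at 0 in all 6. Ripe fruit flesh markers, which include wall enzymes, had 15 of 29 tested genes higher and 2 lower, and summed to 0.112 to 0.119% in WT and 0.124 to 0.129% in the knockout. Pollen markers had 5 of 12 higher and 2 lower, at 0.0418 to 0.0479% and 0.0537 to 0.0589%. The part of these markers in the results was not tested. In these whole-seed samples, fewer cells of a type and less RNA per cell cannot be told apart.

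The row of the disrupted gene could not be pointed to, because the gene IDs of the table are shortened and no reference gene matched by ID. The table describes 56 genes as LOB domain, of which 22 were at 0 in all 6 libraries and 15 were tested. Of the 15, 6 were called higher (40.0%, against 18.0% of all genes) and 2 lower (13.3%, against 19.2%). The higher count was 3 without knockout replicate 2, and the lower count was 1 when any library but WT replicate 2 was left out. Chromosome 2, where SlLBD40 is placed by background knowledge rather than by these files, held 9 of the 56 genes. The most abundant of these read 462, 263 and 406 in WT and 285, 285 and 275 in the knockout (log2 change -0.38 ± 0.20, limma adjusted p = 0.160), so the groups overlapped. Without WT replicate 2, the lowest WT library, this gene was called lower (limma adjusted p = 0.0217). LOB domain-containing protein 36 on chromosome 2 read 10.1, 10.96 and 8.27 in WT and 10.9, 10.8 and 12.53 in the knockout, also with overlap. Of all 56 genes, 2 were at 0 in every knockout library and above 0 in WT, LOB domain-containing protein 22 on chromosome 8 and 24-like on chromosome 9 (copy 3). Each was above 0 in a single WT library, at 0.17 and 0.11, too low to be tested. The level of RNA from a disrupted gene need not fall, so none of these values identifies it.

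Elsewhere in the family, 3 of the 6 higher members show the range of levels. LOB domain-containing protein 41 on chromosome 3, the most abundant of the called members, read 448, 408 and 429 in WT and 628, 694 and 665 in the knockout (log2 change 0.63 ± 0.12, limma adjusted p = 0.00319). LOB domain-containing protein 38 on chromosome 1, of the class that in Arabidopsis represses anthocyanin and nitrogen genes, was nearly silent in WT at 0.39, 0.46 and 0 and read 7.83, 9.36 and 4.01 in the knockout (log2 change 2.61 ± 0.31, limma adjusted p = 5.14e-04). The gene that the table describes as LOB domain-containing protein 40, on chromosome 5, read 20.4, 5.6 and 11.8 in WT and 42.9, 43.9 and 36.1 in the knockout (log2 change 1.78 ± 0.48, limma adjusted p = 0.0169). Its WT libraries spread widely, and its call was lost without WT replicate 2 or knockout replicate 1 or 2. LOB domain-containing protein on chromosome 9 (copy 10) fell, from 3.88, 4.26 and 3.9 in WT to 0.43, 2.02 and 1.35 (log2 change -1.21 ± 0.25, limma adjusted p = 0.00539).

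In 56.8% of tested genes the 3 knockout libraries did not overlap the 3 WT libraries, and in 27.3% all 3 knockout libraries lay above. By the test, 37.2% of genes were called (6826), 18.0% higher in the knockout (3296) and 19.2% lower (3530). Most changes were small: 70.6% of the called genes differed by under 1 on the log2 scale, and 10.9% of all tested genes were called with a difference of at least 1. Among those, risers outnumbered fallers, with 6.80% of tested genes higher and 4.13% lower. At the far end the order turned, with 17 genes higher and 37 lower by at least 3. The balance also differed by the level of the gene. Of 291 genes with a mean of at least 500, 8 rose and 22 fell by at least 1, whereas of 5287 genes below 5, 385 rose and 233 fell by that much. The median change of all genes was -0.023, and it lay between -0.038 and 0.010 under 3 other scalings of the libraries. Counts depended on single libraries: without knockout replicate 1, 4533 genes were called, 2107 of them lower; without WT replicate 2, 2294 were lower; and without knockout replicate 2, 2192 were higher.

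**Figure D1:**
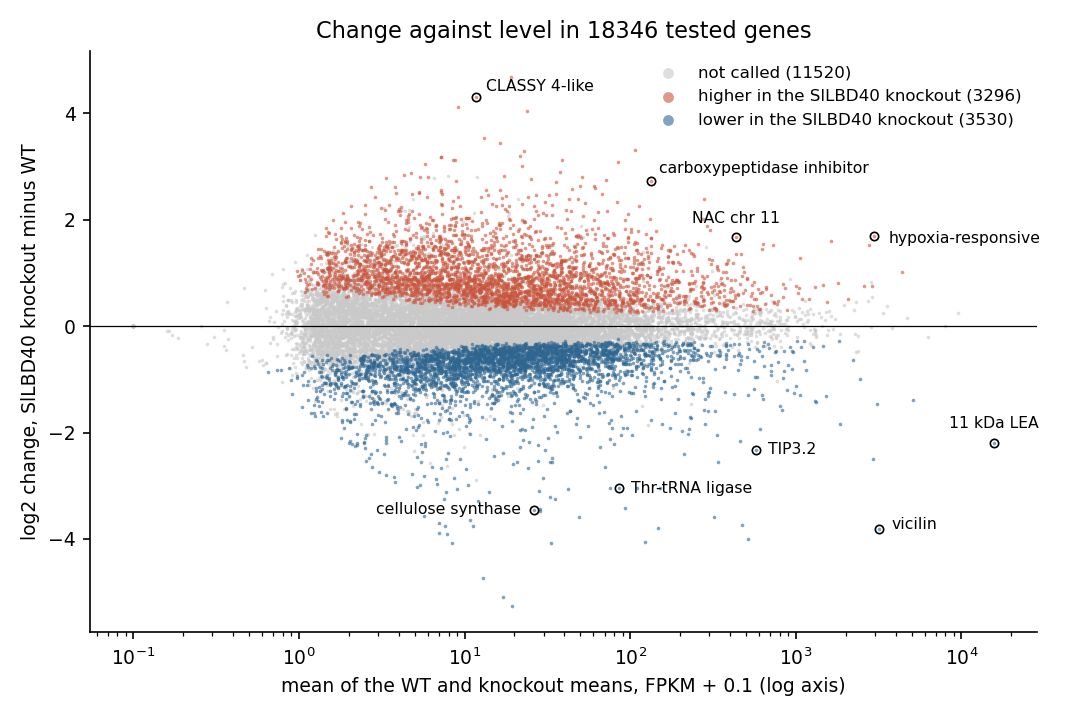
Each point is 1 of 18346 tested genes, with the mean of its 2 genotype means plotted as FPKM + 0.1 on a log axis against its log2 change, SlLBD40 knockout minus WT. Called genes are coloured by direction (3296 higher, 3530 lower). Of the abundant ringed genes, the 11 kDa LEA protein, vicilin and TIP3.2 lie below 0, and the Hypoxia-responsive family protein lies above 0.

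The largest gain in level was that of a Hypoxia-responsive family protein on chromosome 6, a small protein family known to respond to low oxygen, which read 1292, 1542 and 1377 in WT and 4248, 5414 and 4039 in the knockout (log2 change 1.69 ± 0.28, limma adjusted p = 0.00197). Every knockout library held more than the highest WT library by a wide margin. A pair of non-specific lipid-transfer proteins, secreted proteins that carry lipids in the wall, rose: copy 6 on chromosome 1 read 1546, 1557 and 1179 in WT and 3253, 4331 and 4750.2 in the knockout (log2 change 1.52 ± 0.35, limma adjusted p = 0.00865). Copy 4 on chromosome 10 read 2118, 2989 and 3692 in WT and 5329.7, 6205 and 5842 in the knockout (log2 change 1.02 ± 0.28, limma adjusted p = 0.0182), a call lost without WT replicate 1 or knockout replicate 2. Early nodulin-93 on chromosome 12 (copy 2), a small protein found in mitochondria in rice, rose from 2041, 2354 and 2021 to 3285, 4216 and 3426 (log2 change 0.76 ± 0.13, limma adjusted p = 0.00206). Rubber elongation factor on chromosome 1, a lipid droplet type protein, rose from 1709, 1886 and 2203 to 3153, 3366 and 3184 (log2 change 0.75 ± 0.17, limma adjusted p = 0.00699). On the falling side, the rows matched for seed reserves and drying summed to 8.54 ± 0.927% in WT and 3.17 ± 0.315% in the knockout (SD, n = 3). Of their 95 tested genes, 31 were called lower and 14 higher by at least 1 on the log2 scale.

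Some abundant RNAs showed little difference. The most abundant of them, DB141 on chromosome 1, read 7979.9, 7919 and 8131 in WT and 7563, 8037 and 8414 in the knockout (log2 change -0.00 ± 0.13, limma adjusted p = 0.991). The ribosomal protein genes L7a on chromosome 1 (copy 2) and L2 on chromosome 12 had log2 changes of 0.04 ± 0.10 and 0.03 ± 0.10. The Rieske subunit of the mitochondrial cytochrome b-c1 complex on chromosome 11 had 0.03 ± 0.09.

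Genes of wall loosening, the cuticle and surface lipids were called higher more often than the 18.0% of all genes. Among xyloglucan endotransglucosylase/hydrolases, which cut and rejoin the xyloglucan chains that tether cellulose, 13 of 17 tested genes rose and 2 fell, with a median log2 change of 1.68, against -0.023 over all genes. With no filter on low values, which adds members near 0, the median was 0.40. The summed share of the family was 0.0661 ± 0.0162% of the library in WT and 0.133 ± 0.00560% in the knockout (SD, n = 3), with no overlap (exact permutation p = 0.1, the smallest that 3 against 3 allows). Behind that sum the leading gene changed. In WT the most abundant member was copy 3 on chromosome 7, at 158, 293 and 218, and it fell to 88.6, 72.7 and 88.4 in the knockout (log2 change -1.37 ± 0.21, limma adjusted p = 0.00120). In the knockout the lead passed to xyloglucan endotransglucosylase-hydrolase 3 on chromosome 3, which rose from 76.8, 122 and 90.2 to 279, 264 and 271 (log2 change 1.51 ± 0.26, limma adjusted p = 0.00203). It stands in the table beside copies 2, 3† and 4 on the same chromosome, which also rose, copy 3 from 28.6, 57.1 and 29.9 to 155, 136 and 153 (log2 change 1.99 ± 0.29, limma adjusted p = 9.81e-04).

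Of 71 pectin enzymes, which remove methyl or acetyl groups from pectin or cut it, 30 rose and 2 fell, with 4 lower without knockout replicate 3. The median was 0.59, or 0.13 with no filter on low values. Pectinesterase on chromosome 4 rose from 66.4, 112 and 68.8 to 195, 219.6 and 260 (log2 change 1.47 ± 0.22, limma adjusted p = 0.00120). Pectinesterase† on chromosome 9 (copy 2) rose from 0.69, 0.79 and 0.17 to 12.2, 11.3 and 6.36 (log2 change 2.80 ± 0.29, limma adjusted p = 2.54e-04). The families included members that went the other way: Pectin acetylesterase rose on chromosome 1 from 16.2, 16.9 and 14.2 to 36.6, 40.3 and 45.6 (log2 change 1.32 ± 0.12, limma adjusted p = 1.61e-04). Copy 2 on chromosome 3 fell from 58.2, 76.3 and 63.6 to 31.3, 30.8 and 36.2 (log2 change -0.98 ± 0.19, limma adjusted p = 0.00344). Expansins, which loosen walls without cutting them, had 6 of 15 tested genes higher, none lower (median 0.67, or 0.16 with no filter), and 3 higher without WT replicate 1 or knockout replicate 3. The expansin-like protein precursor 1 on chromosome 1 rose from 30.6, 30.3 and 27.1 to 99.9, 85.9 and 92.9 (log2 change 1.63 ± 0.19, limma adjusted p = 4.30e-04). Expansin 10† on chromosome 3 read 17.6, 27.4 and 28.4 in WT and 15.6, 15.6 and 37.3 in the knockout, with overlap.

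Enzymes of the mannan-rich endosperm walls split. The gene described as Mannan endo-1,4-beta-mannosidase 1 on chromosome 2 rose from 0.05, 0.55 and 1.37 to 12.7, 18.4 and 9.7 (log2 change 3.18 ± 0.32, limma adjusted p = 2.19e-04); copies 2 and 3 of it hold the same values in every library and cannot be told apart. A mannan endo-1,4-beta-mannosidase on chromosome 10 (copy 2) fell from 27.6, 29.3 and 25.6 to 8.84, 10.3 and 12.4 (log2 change -1.32 ± 0.15, limma adjusted p = 3.50e-04). A wider list, drawn by words for mannan and xylan hydrolases, also takes in mannosidases of other kinds. Among them Mannosylglycoprotein endo-beta-mannosidase on chromosome 1, a glycoprotein enzyme by its name, was called lower. Of 25 tested genes in that list, 8 rose and 4 fell, with 2 lower without WT replicate 2 or knockout replicate 1. Of 34 glucanases, 13 rose and 1 fell (none lower without WT replicate 1 or 2 or knockout replicate 1 or 2), among them Glucan endo-1,3-beta-glucosidase on chromosome 7, which rose from 25.8, 21.9 and 22.98 to 72.8, 81.2 and 75.3 (log2 change 1.66 ± 0.14, limma adjusted p = 1.10e-04). The marker list of the micropylar endosperm, which holds many of the same genes, had 15 of 37 tested members higher and 3 lower. Its summed share was 0.0481 to 0.0565% in WT and 0.0757 to 0.0894% in the knockout, and its part in these results was not tested.

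Of 34 genes that build cellulose and callose 9 rose and 6 fell, 26.5% and 17.6% against 18.0% and 19.2% of all genes. The summed share of the list was 0.107 ± 0.0113% in WT and 0.107 ± 0.00244% in the knockout. Single members moved far. Cellulose synthase on chromosome 12 (copy 2) fell from 45.05, 53.2 and 47.9 to 3.43, 3.38 and 3.71, a ratio of 13.9 (log2 change -3.46 ± 0.17, limma adjusted p = 4.60e-06). Callose synthase 12 on chromosome 2, an enzyme that makes wall callose, fell from 24.7, 20.7 and 21.4 to 4.08, 4.31 and 4.61 (log2 change -2.12 ± 0.20, limma adjusted p = 1.78e-04). Cellulose synthase on chromosome 4 (copy 1) rose from 17.1, 21.1 and 13.9 to 42.1, 47.8 and 44.2 (log2 change 1.33 ± 0.15, limma adjusted p = 4.00e-04). Among 58 tested genes of a list drawn by words for structural wall proteins 22 rose and 7 fell, 37.9% and 12.1% against 18.0% and 19.2% of all genes. They include Arabinogalactan peptide on chromosome 10, a small glycoprotein of the cell surface, which rose from 8.34, 8.18 and 11.1 to 41.2, 46.4 and 45.2 (log2 change 2.16 ± 0.18, limma adjusted p = 1.12e-04). The most abundant of them, classical arabinogalactan protein 5 on chromosome 4, fell from 512, 577 and 572 to 365, 359.8 and 404 (log2 change -0.56 ± 0.10, limma adjusted p = 0.00288). The words of the list also match Pollen Ole e 1 allergen/extensin on chromosome 2, called lower, which need not be a structural wall protein.

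GDSL esterases, a family of lipid hydrolases that includes the enzymes of cutin assembly, had 18 of 33 tested genes higher and 1 lower, and cuticle and very-long-chain fatty acid genes 15 of 25 higher and 1 lower. Without WT replicate 1 the higher counts were 11 and 8, and without knockout replicate 3 they were 10 and 8. The cuticle count was also 8 without WT replicate 3 or knockout replicate 2. The single lower gene of either list was lost without WT replicate 1 or 2 or knockout replicate 1 or 2, and that of the cuticle also without WT replicate 3. Among them GDSL esterase/lipase on chromosome 1 (copy 4) went up from 12.6, 15.1 and 14.2 to 58.95, 80.5 and 62.6 (log2 change 2.18 ± 0.20, limma adjusted p = 1.70e-04). A 3-ketoacyl-CoA synthase on chromosome 8 (copy 2), of the enzymes that lengthen fatty acids for waxes, rose from 38.96, 39.2 and 35.9 to 65.7, 83.3 and 67.3 (log2 change 0.90 ± 0.12, limma adjusted p = 6.38e-04). Glycerol-3-phosphate acyltransferase on chromosome 1, of a family that makes membrane and cutin lipids, rose from 24.1, 25.5 and 24.98 to 53.4, 67.2 and 68.5 (log2 change 1.30 ± 0.16, limma adjusted p = 5.73e-04). Of 41 genes of desaturation and fatty acid synthesis, 19 rose and 1 fell, a fall lost when any library but knockout replicate 2 was left out. Omega-3 fatty acid desaturase 3 on chromosome 6, which makes the most unsaturated membrane fatty acids, rose from 13.98, 18.5 and 18.1 to 54.6, 48.2 and 51 (log2 change 1.56 ± 0.16, limma adjusted p = 2.38e-04). The epidermis markers summed to 0.0301 to 0.0328% of the library in WT and to 0.0244 to 0.0279% in the knockout, with 3 of 13 tested genes higher and 5 lower; their part in these results was not tested.

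**Figure D2:**
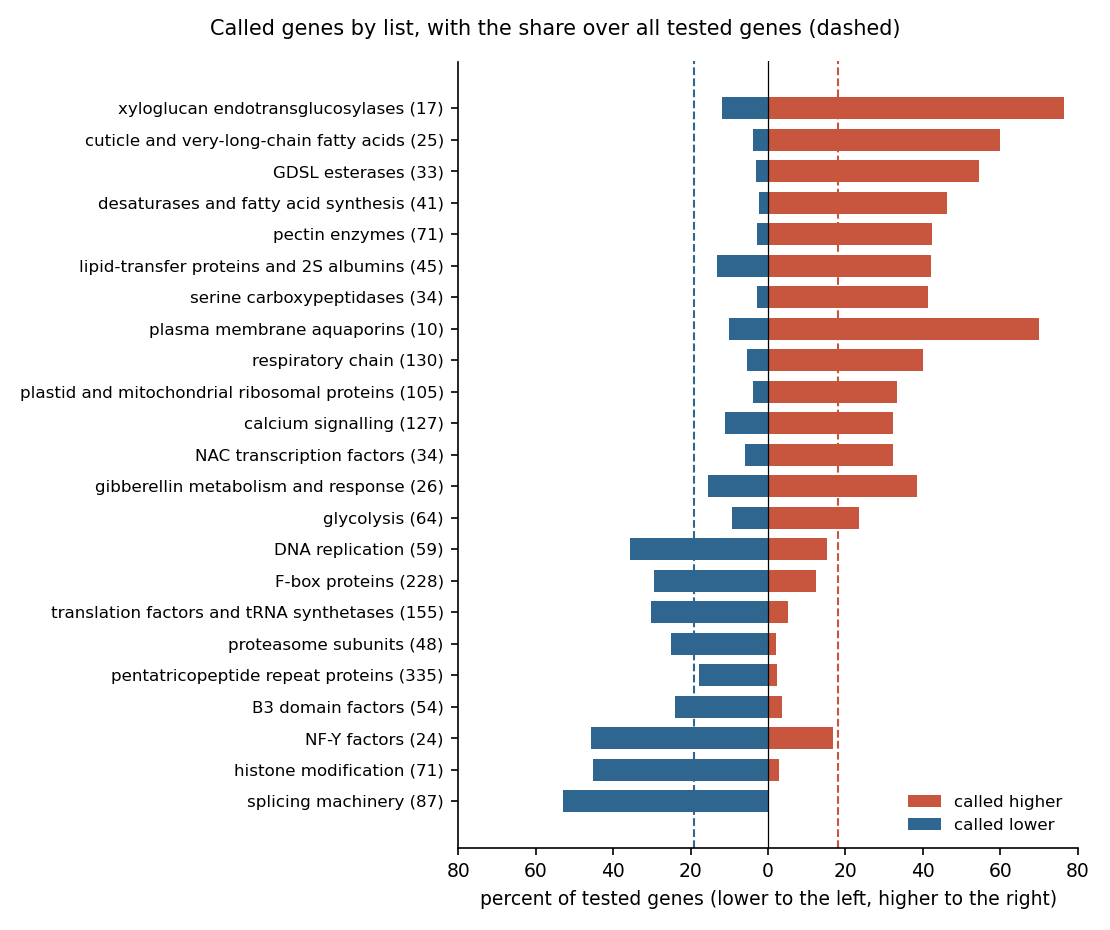
Bars give the percent of tested genes in 23 lists (number tested in parentheses) called higher, to the right, or lower, to the left, in the SlLBD40 knockout, and dashed lines give the shares over all tested genes, 18.0% and 19.2%. Lists of the wall, the cuticle and mitochondria extend to the right, and splicing, histone modification and NF-Y factors to the left.

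Water channels of the vacuole and of the cell surface are described separately. Tonoplast intrinsic proteins (TIPs) let water cross the vacuole membrane, and the TIP3 kind is known as seed-specific, in the membranes of protein storage vacuoles. Of 8 tested TIPs 3 rose (37.5%, against 18.0% of all genes) and 2 fell (25.0%, against 19.2%). Their median was 0.03, and its sign changed under some alternatives. TIP3.2 on chromosome 3 read 984, 1109.96 and 773 in WT and 204, 201 and 162 in the knockout (log2 change -2.32 ± 0.28, limma adjusted p = 4.78e-04). TIP3.1 on chromosome 6 read 429, 531 and 309 in WT and 145, 145 and 124 in the knockout (log2 change -1.58 ± 0.24, limma adjusted p = 0.00130). Both were the most abundant water channel RNAs in every WT library, and both lay far lower in every knockout library. TIPs of growing tissues went up: TIP2.1 on chromosome 12 rose from 11.2, 10.3 and 10.7 to 54.2, 61.1 and 53.2 (log2 change 2.28 ± 0.12, limma adjusted p = 9.50e-06), and TIP1.1† on chromosome 6 from 34.7, 24.9 and 52.2 to 112, 101 and 77.1 (log2 change 1.40 ± 0.25, limma adjusted p = 0.00249). TIP4.1† on chromosome 8 was nearly silent in WT at 0.20, 0.19 and 0.14 and read 3.42, 3.57 and 2.66 in the knockout (log2 change 1.84 ± 0.22, limma adjusted p = 4.69e-04).

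Plasma membrane intrinsic proteins (PIPs), the water channels of the cell surface, had 7 of 10 tested genes higher and 1 lower, the latter lost when any library but knockout replicate 3 was left out. PIP2.9 on chromosome 10 rose from 176, 194 and 179 to 411, 442 and 457 (log2 change 1.25 ± 0.09, limma adjusted p = 4.23e-05), with very little spread inside either genotype. PIP1.7† on chromosome 3 rose from 34.04, 35.7 and 33.9 to 106, 90.3 and 87.8 (log2 change 1.42 ± 0.12, limma adjusted p = 1.22e-04). PIP1.5† on chromosome 8, the most abundant PIP in WT, read 205, 190.01 and 191 in WT and 194, 185 and 186 in the knockout, with overlap. The summed PIP share was 0.0619 ± 4.56e-04% of the library in WT and 0.107 ± 0.00305% in the knockout (SD, n = 3). The TIP share was 0.164 ± 0.0271% and 0.0601 ± 0.00840%, and neither share overlapped between genotypes (exact permutation p = 0.1, n = 3). The split into TIPs and PIPs was made after the values had been seen, so these p-values give no support to it. In the planned list of all aquaporins, 10 of 20 tested genes rose and 3 fell. Its summed share was 0.229 ± 0.0274% in WT and 0.170 ± 0.0106% in the knockout.

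**Figure D3:**
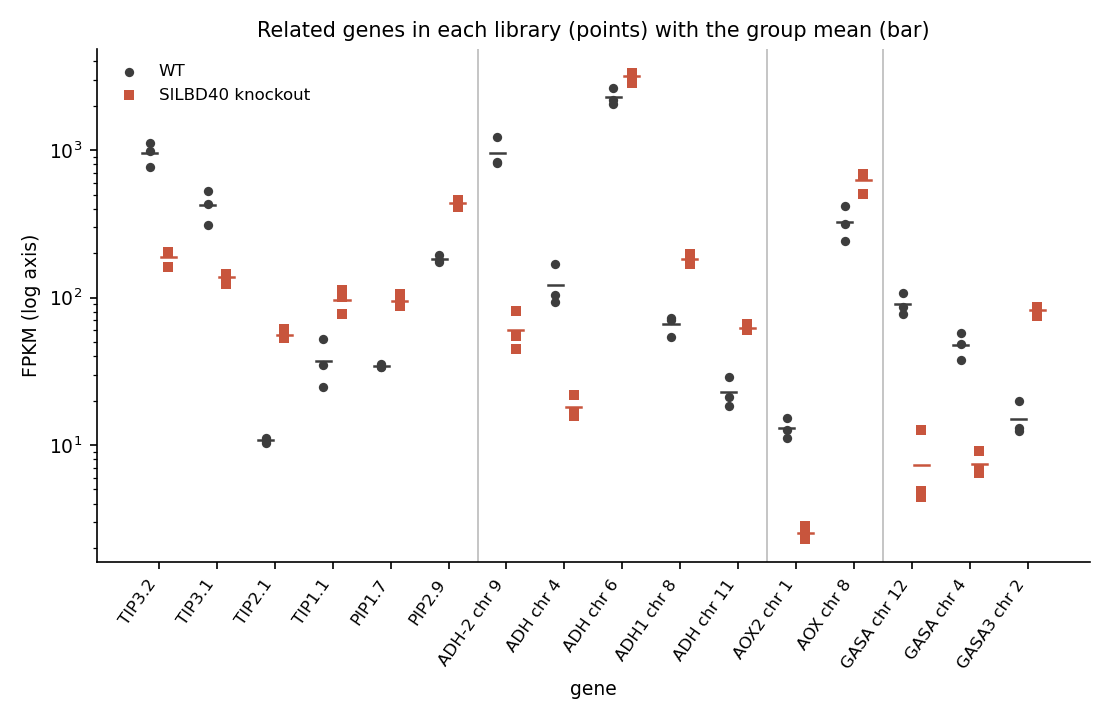
Each point is 1 library (3 of WT, 3 of the SlLBD40 knockout), each bar a group mean, in FPKM on a log axis, for water channels, alcohol dehydrogenases (ADH), alternative oxidases (AOX) and gibberellin-regulated peptides (GASA). Within each family some members are lower and others higher in the knockout; TIP3.2 goes from at least 773 to at most 204, and TIP2.1 from at most 11.2 to at least 53.2.

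Single sugar carriers moved in opposite directions. Sugar transporter protein 1 on chromosome 2, which takes up hexoses, rose from 15.1, 8.48 and 11.96 to 96.4, 109.9 and 62.4 (log2 change 2.81 ± 0.24, limma adjusted p = 1.16e-04). A SWEET carrier on chromosome 9, of a family that lets sugar leave cells, rose from 12.3, 20.4 and 17.98 to 104, 103 and 109.7 (log2 change 2.60 ± 0.16, limma adjusted p = 2.48e-05). The SWEET carrier on chromosome 12 fell from 109, 119.6 and 116 to 66.7, 67.6 and 74.6 (log2 change -0.71 ± 0.10, limma adjusted p = 9.71e-04). Tonoplast monosaccharide transporter 2 on chromosome 4, which loads sugar into the vacuole, fell from 40.6, 48.4 and 34.9 to 17.3, 17.9 and 20.6 (log2 change -1.10 ± 0.13, limma adjusted p = 5.26e-04). Over the list, 8 of 34 rose and 4 fell, 23.5% and 11.8% against 18.0% and 19.2% of all genes. The higher count was 5 without WT replicate 1, and the lower count was 2 without WT replicate 2 or knockout replicate 1.

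Of 130 respiratory chain genes 52 rose (40.0%, against 18.0% of all genes), 7 fell (5.38%, against 19.2%) and 71 were not called. The median was 0.38, and 6 rose by at least 1. Among subunits of complex I, which feeds electrons from NADH into the chain, 18 of 42 rose and none fell, and among ATP synthase subunits 14 of 29 rose and none fell (the latter include chloroplast forms). Cytochrome c oxidase subunits, of the last complex of the chain, were mixed, with 5 of 26 higher and 4 lower. Without WT replicate 1 the higher counts of complex I and ATP synthase were 10 and 9, and no cytochrome c oxidase subunit was lower. Complex I had 11 higher without knockout replicate 3, ATP synthase 9 without knockout replicate 2, and cytochrome c oxidase 0 to 2 lower without WT replicate 2 or 3 or knockout replicate 1 or 2. NADH-ubiquinone oxidoreductase on chromosome 4 rose from 126, 138 and 135 to 237, 231 and 244 (log2 change 0.83 ± 0.10, limma adjusted p = 4.14e-04). The mitochondrial ATP synthase subunit epsilon† on chromosome 12 rose from 263, 332 and 318 to 658, 644 and 656 (log2 change 1.11 ± 0.17, limma adjusted p = 0.00128). The summed share of the list was 1.1 ± 0.0644% in WT and 1.53 ± 0.0424% in the knockout, without overlap (exact permutation p = 0.1). Without WT replicate 1 or knockout replicate 2, 31 genes of the list were called higher, and 2 to 4 were lower without WT replicate 1 or 2 or knockout replicate 1 or 2. Of 105 plastid and mitochondrial ribosomal proteins, 35 rose (33.3%) and 4 fell (3.81%), with none or 1 lower when any library but knockout replicate 3 was left out. The 50S ribosomal protein L33 on chromosome 4 (copy 1) rose from 54.98, 51.4 and 49.6 to 86.4, 82.95 and 109.5 (log2 change 0.82 ± 0.12, limma adjusted p = 0.001).

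Succinate dehydrogenase links the citric acid cycle to the chain, and of its 14 tested genes 6 rose and 2 fell, with a median of 0.23. The higher count was 3 without WT replicate 1 or 3 and 2 without knockout replicate 2. The 2 that fell are iron-sulfur subunits on chromosome 4. Copy 1 fell from 45.1, 37.4 and 33.3 to 21.03, 17.4 and 15.01 (log2 change -1.08 ± 0.17, limma adjusted p = 0.00139). Copy 2† read 20.5, 16.6 and 11.5 in WT and 0.71, 0 and 3.81 in the knockout (log2 change -3.06 ± 0.86, limma adjusted p = 0.0197), a call lost without WT replicate 1 or 2 or knockout replicate 1 or 2. Alternative oxidases, which let electrons bypass the later complexes, split: alternative oxidase 2 on chromosome 1 fell from 15.2, 12.7 and 11.2 to 2.44, 2.31 and 2.83 (log2 change -1.99 ± 0.22, limma adjusted p = 3.50e-04). The more abundant alternative oxidase† on chromosome 8 read 317, 243 and 421 in WT and 676, 690.1 and 506 in the knockout (log2 change 0.95 ± 0.26, limma adjusted p = 0.0162), a call lost without WT replicate 2 or knockout replicate 1 or 2.

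Fermentation genes also had members that moved in opposite directions. Alcohol dehydrogenase, which regenerates NAD+ when oxygen is short, is coded by several genes, of which 13 were tested, 4 rose and 2 fell, with 2 higher when any library but knockout replicate 2 was left out. The alcohol dehydrogenase-2 on chromosome 9 read 1235, 818 and 835 in WT and 44.7, 54.5 and 80.99 in the knockout (log2 change -4.00 ± 0.50, limma adjusted p = 5.73e-04), and the one on chromosome 4 read 168, 93.5 and 104 in WT and 16.9, 15.8 and 22.01 in the knockout (log2 change -2.64 ± 0.48, limma adjusted p = 0.00294). Going the other way, alcohol dehydrogenase 1 on chromosome 8 rose from 70.96, 72.9 and 54.1 to 169, 177 and 199 (log2 change 1.46 ± 0.17, limma adjusted p = 4.17e-04). The one on chromosome 11† rose from 21.2, 18.5 and 29.1 to 65.9, 60.04 and 60.8 (log2 change 1.43 ± 0.22, limma adjusted p = 0.00127). The most abundant member, on chromosome 6, read 2649.5, 2044 and 2198 in WT and 3307, 3358 and 2839 in the knockout, and missed the threshold (log2 change 0.47 ± 0.17, limma adjusted p = 0.0549). Lactate dehydrogenase on chromosome 8 rose from 63.8, 44.8 and 51.04 to 156, 171 and 141 (log2 change 1.55 ± 0.16, limma adjusted p = 2.79e-04). Of the pyruvate decarboxylases, which open the path to ethanol, the gene on chromosome 9† rose from 37.8, 26.4 and 18.2 to 79.6, 89.95 and 60.7 (log2 change 1.49 ± 0.25, limma adjusted p = 0.00189), while the most abundant, on chromosome 10†, read 1977, 1499 and 1703 in WT and 1712, 1712 and 1514 in the knockout. Over the list 8 of 23 rose and 3 fell, with 4 higher without WT replicate 3 and 5 without WT replicate 2 or knockout replicate 1 or 2, and the summed share overlapped between genotypes (exact permutation p = 0.600).

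Of 64 glycolysis genes, 15 rose (23.4%, against 18.0% of all genes) and 6 fell (9.38%, against 19.2%), with 3 lower without knockout replicate 1. Among them is glyceraldehyde 3-phosphate dehydrogenase on chromosome 5, which rose from 1504, 1125 and 1295 to 2218, 2413 and 2227 (log2 change 0.81 ± 0.13, limma adjusted p = 0.00163). Triosephosphate isomerase on chromosome 4 rose from 1038, 948 and 926 to 1607, 1771 and 1496 (log2 change 0.74 ± 0.11, limma adjusted p = 0.00124). Sucrose synthase on chromosome 7, which splits sucrose for use, rose from 435, 299.6 and 333 to 663, 673 and 646 (log2 change 0.91 ± 0.13, limma adjusted p = 9.77e-04). Enzymes that act on galactose-bearing reserves diverged: the alkaline alpha-galactosidase called seed imbibition protein, on chromosome 7, fell from 14.5, 15.1 and 11.2 to 1.55, 1.97 and 1.22 (log2 change -2.50 ± 0.22, limma adjusted p = 1.28e-04). The alpha-galactosidase on chromosome 3, of a kind that can strip galactose from mannan or raffinose, rose from 123, 152 and 123 to 199.97, 263 and 270.4 (log2 change 0.87 ± 0.14, limma adjusted p = 0.00140). Of 32 cysteine proteases 14 rose (43.8%, against 18.0% of all genes) and 5 fell (15.6%, against 19.2%). The lower count was 3 without WT replicate 1 or 3 or knockout replicate 1. The fallers include a pair known from seed vacuoles. Vacuolar-processing enzyme on chromosome 8 (copy 14), of the kind that matures storage proteins, fell from 460.1, 461 and 413 to 136, 154 and 148 (log2 change -1.60 ± 0.11, limma adjusted p = 4.23e-05). Cysteine proteinase 15A on chromosome 11 fell from 1420, 1441 and 1283 to 615, 688 and 586 (log2 change -1.13 ± 0.12, limma adjusted p = 2.49e-04). Cysteine proteinase RD21a on chromosome 2, a general vacuolar protease, rose from 749.8, 832 and 789 to 1238, 1335 and 1347 (log2 change 0.72 ± 0.14, limma adjusted p = 0.00409). The summed share of cysteine proteases was 0.511 ± 0.0235% in WT and 0.512 ± 0.0116% in the knockout. The list labelled serine carboxypeptidases was drawn by the word carboxypeptidase alone, so it can hold other kinds. It had 14 of 34 genes higher (41.2%, against 18.0% of all genes) and 1 lower (2.94%, against 19.2%). The same list holds the metallocarboxypeptidase inhibitor on chromosome 6, a small defence protein that blocks digestive enzymes, which rose from 29.96, 38 and 34.9 to 209, 247 and 238 (log2 change 2.72 ± 0.19, limma adjusted p = 4.23e-05).

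Most histone genes rose, while those of the highest level were split. Histones package DNA, and the bulk of their genes is switched on with DNA synthesis. Of 38 histone genes with a mean below 200 over the 6 libraries, 28 rose and 2 fell, with a median of 1.27; of 17 at 200 or more, 7 rose and 5 fell, with a median of 0.00, and 2 or 3 fell when any library but knockout replicate 3 was left out. The split at 200 was set after the values had been seen. By class the median was 1.68 for H3 (8 of 14 higher, 3 lower, and 1 lower without WT replicate 2 or 3 or knockout replicate 1 or 2), 1.22 for H4 (8 of 12 higher, 1 lower), 0.86 for H2B (10 of 13 higher, 1 lower) and 0.79 for H2A (8 of 13 higher, 1 lower). Histone H3† on chromosome 10 rose from 15.5, 21.8 and 33.4 to 119, 104 and 88.7 (log2 change 2.15 ± 0.27, limma adjusted p = 5.61e-04). Histone H4† on chromosome 11 (copy 3) rose from 98.5, 91.5 and 141 to 482, 399 and 439 (log2 change 2.01 ± 0.26, limma adjusted p = 6.20e-04). Histone H4 on chromosome 6 (copy 7), at 777, 740.4 and 712 in WT, fell to 444, 523 and 547 (log2 change -0.56 ± 0.12, limma adjusted p = 0.00691). Histone H2B on chromosome 6 (copy 2) fell from 108, 169.7 and 126 to 45.3, 44.2 and 33.5 (log2 change -1.68 ± 0.22, limma adjusted p = 6.85e-04). Histone H2B on chromosome 5, the most abundant of its class, read 955, 837 and 908 in WT and 931, 857 and 913 in the knockout. With no filter on low values the H3 median was 0.47. Copies of a histone class are near-identical in coding sequence, so how the authors' counting divided fragments among them is uncertain. Meristem markers summed to 0.0168 to 0.0182% of the library in WT and 0.0189 to 0.0217% in the knockout, with 4 of 17 tested genes higher and 2 lower; their part in the histone result was not tested. Cyclins and cyclin-dependent kinases, which drive the cell cycle, had 10 of 51 tested genes higher and 8 lower, near the shares over all genes, with summed shares that overlapped. Without WT replicate 1 or knockout replicate 3, 6 were higher, and without WT replicate 2 or 3 or knockout replicate 1 or 2, 3 or 4 were lower. Cyclin on chromosome 4 rose from 1.33, 1.35 and 2.76 to 9.82, 8.43 and 8.79 (log2 change 1.87 ± 0.24, limma adjusted p = 6.17e-04). Cyclin A2 on chromosome 6 rose from 5.14, 5.74 and 8.35 to 15.2, 17.2 and 15.7 (log2 change 1.22 ± 0.20, limma adjusted p = 0.00179), and Cyclin-A1-1 on chromosome 1 went down from 8.77, 10.3 and 7.57 to 4.11, 3.53 and 5.55 (log2 change -0.88 ± 0.18, limma adjusted p = 0.00446). Cyclin-dependent kinase inhibitor on chromosome 12, a brake on the cycle, fell from 128, 118 and 149.8 to 67.5, 71.9 and 69.4 (log2 change -0.91 ± 0.13, limma adjusted p = 8.64e-04).

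**Figure D4:**
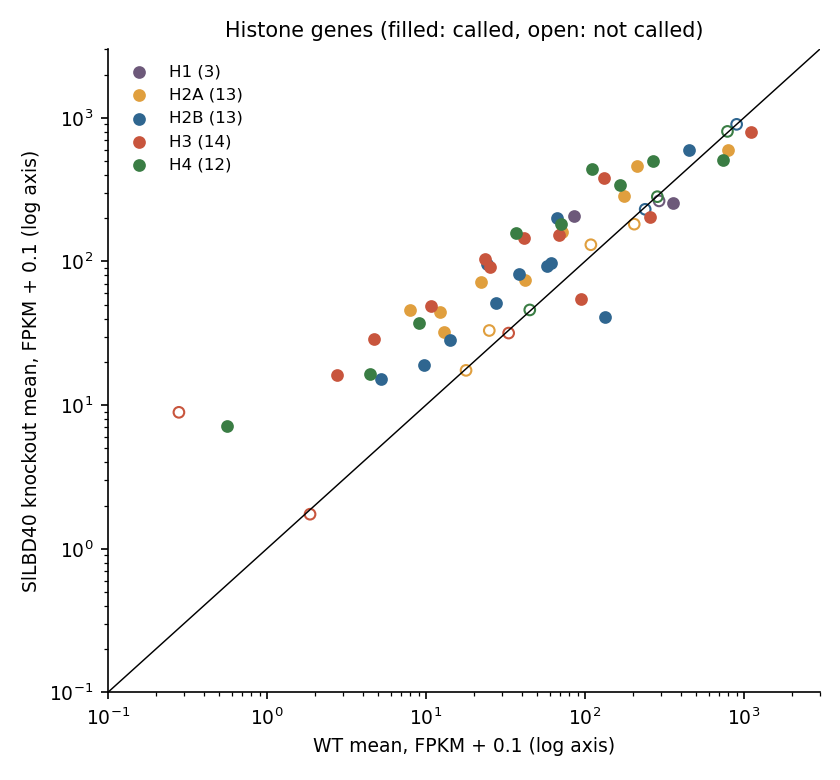
Each point is 1 of 55 tested histone genes, with the WT mean against the SlLBD40 knockout mean, both in FPKM + 0.1 on log axes, coloured by class, and filled where called. Points lie above the line of equal level over most of the range and come back to it at the highest WT levels.

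DNA replication genes had members in both directions. Of 59 tested, 9 rose (15.3%, against 18.0% of all genes) and 21 fell (35.6%, against 19.2%), with a median of -0.07. The lower count was 13 without knockout replicate 2. The summed share was 0.482 ± 0.0502% in WT and 0.280 ± 0.0111% in the knockout. A single gene made up most of it: the row described as DNA polymerase epsilon catalytic subunit A on chromosome 4 read 3643, 2855 and 3233 in WT and 1518, 1617 and 1753 in the knockout (log2 change -0.99 ± 0.24, limma adjusted p = 0.0107). Replication protein A 32 kDa subunit B on chromosome 10, which holds single-stranded DNA, fell from 126, 115 and 124 to 52.96, 56.98 and 62.9 (log2 change -1.07 ± 0.14, limma adjusted p = 6.41e-04). The Replication protein A subunit on chromosome 3 rose from 4.88, 3.49 and 5.23 to 12.9, 11.8 and 13.1 (log2 change 1.31 ± 0.22, limma adjusted p = 0.00181). Origin of replication complex subunit 6 on chromosome 5 rose from 3.2, 2.6 and 3.09 to 9.61, 10.2 and 9.64 (log2 change 1.45 ± 0.20, limma adjusted p = 8.51e-04).

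Of 71 histone modification genes 32 fell (45.1%, against 19.2% of all genes) and 2 rose (2.82%, against 18.0%), with a median of -0.35. Histone deacetylase on chromosome 8 fell from 11.2, 14.5 and 12.6 to 4.79, 4.54 and 5.3 (log2 change -1.22 ± 0.15, limma adjusted p = 5.28e-04). Enhancer of polycomb-like protein on chromosome 8 fell from 20.6, 22.8 and 20.7 to 9.02, 9.28 and 11.4 (log2 change -1.04 ± 0.14, limma adjusted p = 7.89e-04). One of the 2 risers was the ATXR6-like histone-lysine N-methyltransferase on chromosome 3, of a kind that in Arabidopsis methylates newly made H3, from 2.16, 2.41 and 2.21 to 7.98, 7.04 and 8.88 (log2 change 1.46 ± 0.15, limma adjusted p = 2.49e-04). In the list of DNA methylation and small RNA genes 6 of 35 rose and 9 fell, with 5 lower without WT replicate 3. These shares of 17.1% and 25.7% lay near the 18.0% and 19.2% of all genes, and single members are described next. A CLASSY 4-like protein with an SNF2 domain, on chromosome 1, of the kind that in Arabidopsis brings the polymerase of RNA-directed DNA methylation to its sites, was nearly silent in WT at 0.13, 0.36 and 0.12 and read 21.8, 19.7 and 27.3 in the knockout (log2 change 4.31 ± 0.20, limma adjusted p = 3.51e-06). In the same pathway, Argonaute4b on chromosome 6 fell from 81.3, 78.9 and 67.5 to 35.1, 37.4 and 36.5 (log2 change -1.04 ± 0.16, limma adjusted p = 0.00143). The methyltransferase DRM2 on chromosome 5 (copy 1) fell from 22.7, 20.99 and 18.3 to 10.9, 11.8 and 11.4 (log2 change -0.80 ± 0.14, limma adjusted p = 0.00231). The gene described as cytosine-5 DNA methyltransferase3L on chromosome 12 rose from 9.86, 10.8 and 14.7 to 38.1, 39.8 and 36.6 (log2 change 1.63 ± 0.27, limma adjusted p = 0.00199).

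Of 87 splicing genes 46 fell and none rose, against 19.2% lower and 18.0% higher over all genes; the steps were small, with a median of -0.41 and 4 genes lower by at least 1. Without knockout replicate 1, WT replicate 2 or knockout replicate 2 the count of lower genes was 26, 28 or 29. Serine/arginine-rich factors, which choose splice sites, had 13 of 20 lower and none higher, with 7 lower without WT replicate 2 or knockout replicate 1 and 8 without knockout replicate 2. SR34 on chromosome 1 fell from 92.9, 89.7 and 79.4 to 35.2, 38.2 and 46.1 (log2 change -1.12 ± 0.12, limma adjusted p = 3.42e-04). SCL28 on chromosome 1 fell from 53.05, 52.2 and 50.8 to 29.7, 26.8 and 31.7 (log2 change -0.81 ± 0.14, limma adjusted p = 0.00209). Pre-mRNA-processing-splicing factor 8† on chromosome 7, the central scaffold of the spliceosome, fell from 92.7, 108 and 92.02 to 37.2, 48.1 and 54.5 (log2 change -1.06 ± 0.19, limma adjusted p = 0.00273). Suppressor of abi3-5 on chromosome 8, known in Arabidopsis as a splicing factor that acts on the seed regulator ABI3, fell from 45.6, 48.2 and 45.2 to 17.5, 21.97 and 25.4 (log2 change -1.08 ± 0.15, limma adjusted p = 9.13e-04). The tomato ABI3 row on chromosome 6 itself read 224, 264 and 205 in WT and 236, 254 and 315 in the knockout (log2 change 0.21 ± 0.15, limma adjusted p = 0.295).

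Of 155 translation factors and tRNA ligases 47 fell (30.3%, against 19.2% of all genes) and 8 rose (5.16%, against 18.0%). The lower count was 20 without knockout replicate 1 and 27 to 31 without WT replicate 1 or 2 or knockout replicate 2. The higher count was 4 or 5 with any library left out. The largest change among them was in the cytoplasmic Threonine--tRNA ligase on chromosome 7, which charges the tRNA of threonine and fell from 143, 188 and 128 to 15.5, 20.4 and 16.6 (log2 change -3.05 ± 0.19, limma adjusted p = 2.91e-05). Of 335 pentatricopeptide repeat genes, which edit and mature organelle RNAs, 60 fell and 8 rose; the lower share of 17.9% lay near the background of 19.2%, and the higher share was 2.39%. Leaving out any library but knockout replicate 3 brought the lower count to between 28 and 33, and the higher count was 4 without WT replicate 1 or knockout replicate 1 or 2. Of 48 proteasome genes 12 fell and 1 rose, with 3 to 6 lower when any library was left out. The lower share of 25.0% lay near the 19.2% of all genes, and the higher share was 2.08% against 18.0%. The 26S subunit 1-like protein B on chromosome 5 fell from 105, 97.3 and 93.8 to 26.1, 33.3 and 34.96 (log2 change -1.63 ± 0.21, limma adjusted p = 6.25e-04). Subunit 5 on chromosome 7 fell from 66.5, 60.2 and 61.7 to 25.8, 27.9 and 28.6 (log2 change -1.17 ± 0.11, limma adjusted p = 2.05e-04). The small subunit DSS1 on chromosome 6 rose from 1.99, 5.35 and 5.14 to 24.2, 17.6 and 20.1 (log2 change 2.14 ± 0.40, limma adjusted p = 0.00311).

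F-box proteins choose what the proteasome destroys. Of 228, 67 fell (29.4%, against 19.2% of all genes) and 28 rose (12.3%, against 18.0%), with 43 lower without knockout replicate 1. F-box/LRR-repeat protein 14-like on chromosome 12 fell from 47.6, 58.2 and 52.4 to 5.03, 5.83 and 8.96 (log2 change -2.85 ± 0.35, limma adjusted p = 5.36e-04). F-box protein on chromosome 11 (copy 1) rose from 11.5, 13.2 and 11.1 to 72.9, 79.1 and 77.2 (log2 change 2.58 ± 0.18, limma adjusted p = 4.23e-05). F-box protein on chromosome 12 (copy 5) rose from 14.7, 17.99 and 13.2 to 62.8, 66.4 and 88.2 (log2 change 2.17 ± 0.19, limma adjusted p = 1.31e-04).

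NF-Y factors bind CCAAT boxes as a complex of subunits A, B and C, and several are known to act in embryo maturation and in abscisic acid (ABA) signalling. Of 24 tested genes in the list 11 fell (45.8%, against 19.2% of all genes) and 4 rose (16.7%, against 18.0%). Of 9 tested A subunits 7 fell and none rose, with a median of -0.88. Subunit A-1† on chromosome 8 fell from 38.7, 33.9 and 32.95 to 8.34, 5.62 and 12.4 (log2 change -1.94 ± 0.31, limma adjusted p = 0.00165). Subunit A-9 on chromosome 11 fell from 117, 99.9 and 103 to 50.3, 47.3 and 50.1 (log2 change -1.10 ± 0.17, limma adjusted p = 0.00130). Of 9 B subunits 2 fell and 1 rose, not far from the shares over all genes. The lower count was 1 without WT replicate 1 or 2 or knockout replicate 1 or 2. Subunit B-9 on chromosome 5 (copy 3), of the type called LEAFY COTYLEDON 1 in Arabidopsis, fell from 7.21, 5.34 and 3.83 to 0, 0.29 and 0.52 (log2 change -2.33 ± 0.32, limma adjusted p = 8.64e-04). Of 5 C subunits 3 rose and 1 fell; the lower count was 0 without WT replicate 2 or knockout replicate 1 or 2, and 2 without knockout replicate 3. The C-4-like gene on chromosome 5 rose from 4.91, 4.84 and 4.6 to 22.2, 16.7 and 22.7 (log2 change 1.89 ± 0.20, limma adjusted p = 3.14e-04).

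ABI5-like bZIP factors carry the ABA signal to maturation genes, and 4 of 8 fell and 2 rose. None or 1 rose with any library left out, and 2 fell without WT replicate 1. The gene described as ABI5 itself†, on chromosome 4, was one of the 4 and lost its call with any library left out and under the replicate block. ABI5-like protein 5 on chromosome 1 read 52.6, 42.8 and 44.6 in WT and 11.3, 15.1 and 15.3 in the knockout (log2 change -1.68 ± 0.20, limma adjusted p = 4.53e-04), and another ABI5-like gene† on chromosome 1 read 39.9, 43.95 and 42.6 in WT and 17.3, 19.3 and 19.5 in the knockout (log2 change -1.13 ± 0.17, limma adjusted p = 0.00127). Of 14 ABA receptors, which switch off the phosphatases of the pathway, 4 rose (28.6%) and 1 fell (7.14%), against 18.0% and 19.2% of all genes. PYL4-like on chromosome 3 rose from 48.6, 42.95 and 39.4 to 99.3, 107 and 138 (log2 change 1.36 ± 0.19, limma adjusted p = 8.81e-04). PYL10 on chromosome 12 rose from 4.27, 5.03 and 3.87 to 8.15, 9.11 and 9.67 (log2 change 0.89 ± 0.14, limma adjusted p = 0.00157). PYL8 on chromosome 3 read 199.7, 150.1 and 156 in WT and 220.1, 236 and 230.5 in the knockout (log2 change 0.45 ± 0.12, limma adjusted p = 0.0186), a call lost without WT replicate 2 or 3 or knockout replicate 2. The 1 that fell was PYL8 on chromosome 8, from 59.98, 42.6 and 49.05 to 20.4, 24.1 and 22.7 (log2 change -1.13 ± 0.16, limma adjusted p = 8.64e-04). The row described as Transcription factor TGA like domain on chromosome 3, in the list of dormancy regulators, fell from 17.9, 11.1 and 12.4 to 1.73, 1.03 and 2.86 (log2 change -2.39 ± 0.31, limma adjusted p = 6.63e-04). Of 18 genes in that list 5 fell (27.8%, against 19.2% of all genes) and 2 rose (11.1%, against 18.0%). The lower count was 3 without WT replicate 1 or knockout replicate 1 or 2.

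Gibberellin genes, of the hormone that opposes ABA in germination, had 10 of 26 higher (38.5%) and 4 lower (15.4%), against 18.0% and 19.2% of all genes. Gibberellin 2-oxidases inactivate the hormone, and 3 of 6 rose and none fell. Gibberellin 2-oxidase 5† on chromosome 7 rose from 1.01, 0.51 and 0.43 to 3.44, 3.23 and 2.38 (log2 change 1.29 ± 0.24, limma adjusted p = 0.00312), while 2-oxidase 4† on the same chromosome read 97.3, 28.5 and 45.1 in WT and 175, 191 and 107 in the knockout (log2 change 1.59 ± 0.42, limma adjusted p = 0.0156), a call lost without WT replicate 2 or knockout replicate 1 or 2. The Gibberellin receptor† on chromosome 6 fell from 29.6, 26.7 and 21.1 to 11, 15.2 and 11.6 (log2 change -0.98 ± 0.23, limma adjusted p = 0.00981). Another, on chromosome 9†, read 10.7, 10.97 and 6.73 in WT and 13.1, 17.4 and 17.4 in the knockout (log2 change 0.71 ± 0.23, limma adjusted p = 0.0327), a rise whose call was lost without WT replicate 1 or 3 or knockout replicate 2 or 3, and with no filter on low values. Gibberellin-regulated peptides, small secreted proteins that follow the hormone in several species, had 6 of 15 tested genes higher and 3 lower, with a median of 0.95. The one on chromosome 12 fell from 107, 85.8 and 77.5 to 4.42, 4.89 and 12.6 (log2 change -3.58 ± 0.54, limma adjusted p = 0.00124). That on chromosome 4 fell from 48.8, 57.7 and 37.7 to 6.76, 6.49 and 9.17 (log2 change -2.53 ± 0.23, limma adjusted p = 1.60e-04). Gibberellin-regulated protein 3† on chromosome 2 (copy 2) rose from 13.1, 19.9 and 12.49 to 84.1, 75.4 and 85.9 (log2 change 2.39 ± 0.39, limma adjusted p = 0.00176).

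SAUR genes, quick auxin responders tied to cell expansion, had 6 of 15 higher (40.0%) and 1 lower (6.67%), against 18.0% and 19.2% of all genes. None was lower without WT replicate 1 or 2 or knockout replicate 1 or 2. Their summed share was 0.0111 ± 9.63e-04% in WT and 0.0252 ± 0.00263% in the knockout. The SAUR gene on chromosome 7 rose from 45.8, 36.2 and 45.2 to 92.1, 139 and 125 (log2 change 1.45 ± 0.15, limma adjusted p = 2.79e-04). Of 34 NAC factors 11 rose (32.4%, against 18.0% of all genes) and 2 fell (5.88%, against 19.2%). The lower count was 1 when any library but knockout replicate 2 was left out. The most abundant is NAC domain-containing protein on chromosome 11 (copy 1), which rose from 198, 176 and 251 to 626, 599.9 and 762 (log2 change 1.67 ± 0.16, limma adjusted p = 1.93e-04). Of 63 AP2/ERF factors 20 rose (31.7%, against 18.0% of all genes) and 9 fell (14.3%, against 19.2%). Ethylene response factor E.1 on chromosome 9, of the group that in other plants responds to low oxygen, rose from 531, 464 and 499.8 to 799, 841 and 849 (log2 change 0.74 ± 0.10, limma adjusted p = 7.23e-04). Ethylene-responsive transcription factor on chromosome 3 (copy 5) fell from 64.01, 37.8 and 57.9 to 3.31, 2.56 and 6.04 (log2 change -3.47 ± 0.35, limma adjusted p = 2.19e-04). Protein GIGANTEA on chromosome 4, a clock protein, fell from 13.8, 16.9 and 16.5 to 7.51, 8.88 and 7.16 (log2 change -0.92 ± 0.18, limma adjusted p = 0.00385). Of 127 calcium signalling genes 41 rose and 14 fell, among them the Calcium-dependent protein kinase on chromosome 2 (copy 3), which rose from 24.4, 24.6 and 20.5 to 70.1, 86.8 and 96.2 (log2 change 1.81 ± 0.14, limma adjusted p = 5.90e-05).

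Chalcone isomerase on chromosome 2, an early step of flavonoid synthesis, read 310.04, 275 and 602 in WT and 1105, 1117 and 979 in the knockout (log2 change 1.52 ± 0.37, limma adjusted p = 0.0109); WT replicate 3 stood above the other WT libraries and still below every knockout library. The list of 43 phenylpropanoid and flavonoid enzymes had 14 higher (32.6%) and 3 lower (6.98%), against 18.0% and 19.2% of all genes. The higher count was 7 to 9 when any library was left out. The lower count was 1 without WT replicate 1, 2 or 3 or knockout replicate 1. Peroxidase on chromosome 11 (copy 5), of the wall-bound class, rose from 42.1, 53.7 and 36.8 to 187, 167 and 123 (log2 change 1.82 ± 0.36, limma adjusted p = 0.00423). Cytochrome P450 on chromosome 8 (copy 1) rose from 20, 15.6 and 12.7 to 103, 113 and 96.8 (log2 change 2.64 ± 0.29, limma adjusted p = 3.21e-04).

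A small set of genes was present in one genotype and nearly absent in the other. By a criterion set after values had been seen, 36 genes read at least 2 in every WT library and had a knockout mean below 5% of the WT mean, which is 0.242% of the genes that met the WT level. In the other direction 19 genes met it, or 0.125%. With 10% in place of 5% the counts were 64 and 39. Without WT replicate 3 the first count was 56, and without knockout replicate 1 the second was 32. Of the 36, 14 were at 0 in all 3 knockout libraries, and 5 of those read at least 5 in every WT library: tyrosine sulfotransferase-like protein, UDP-glycosyltransferase 76E1 and NAP1-related protein 2, all on chromosome 12, and 2 unknown proteins on chromosomes 7 and 9. UDP-glycosyltransferase 76E1, of a family that attaches sugars to small molecules, read 9.87, 7.95 and 15.9 in WT. NAP1-related protein 2, a histone chaperone, read 17.1, 22.9 and 6.61 in WT. Unknown protein on chromosome 7 (copy 290) read 24.2, 26.3 and 26.7, and Unknown protein† on chromosome 4 (copy 343) fell from 33.2, 49.4 and 32.8 to 0.02, 0 and 0.02 (log2 change -5.26 ± 0.16, limma adjusted p = 2.67e-07). Nucleobase-ascorbate transporter 6-like protein† on chromosome 4 fell from 8.96, 11.2 and 9.41 to 0.23, 0.47 and 0.30 (log2 change -3.02 ± 0.21, limma adjusted p = 4.23e-05).

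Of these 36 genes, 8 were on chromosome 5, out of 955 genes there that met the WT level, 7 on chromosome 12, out of 951, and 4 on chromosome 4, out of 1290. RNA genes made up 8 of the 36 and 548 of the 14862 genes that met the level. No test of these shares was made. The SlWRKY37 knockout libraries, from the same seed stage, read at least 2 in all 3 libraries for 12 of the 36, and 6 of these 12 were on chromosome 12. For example, NAP1-related protein 2 read 23.1, 73.8 and 13.3 there, whereas UDP-glycosyltransferase 76E1 read 0, 0 and 0. For 7 of the 36, the SlWRKY37 knockout mean was also below 5% of the WT mean. The matching SlWRKY37 shares over all 14862 genes that met the WT level are not given here. These counts therefore do not show whether a loss is shared or particular to a genotype.

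**Figure D5:**
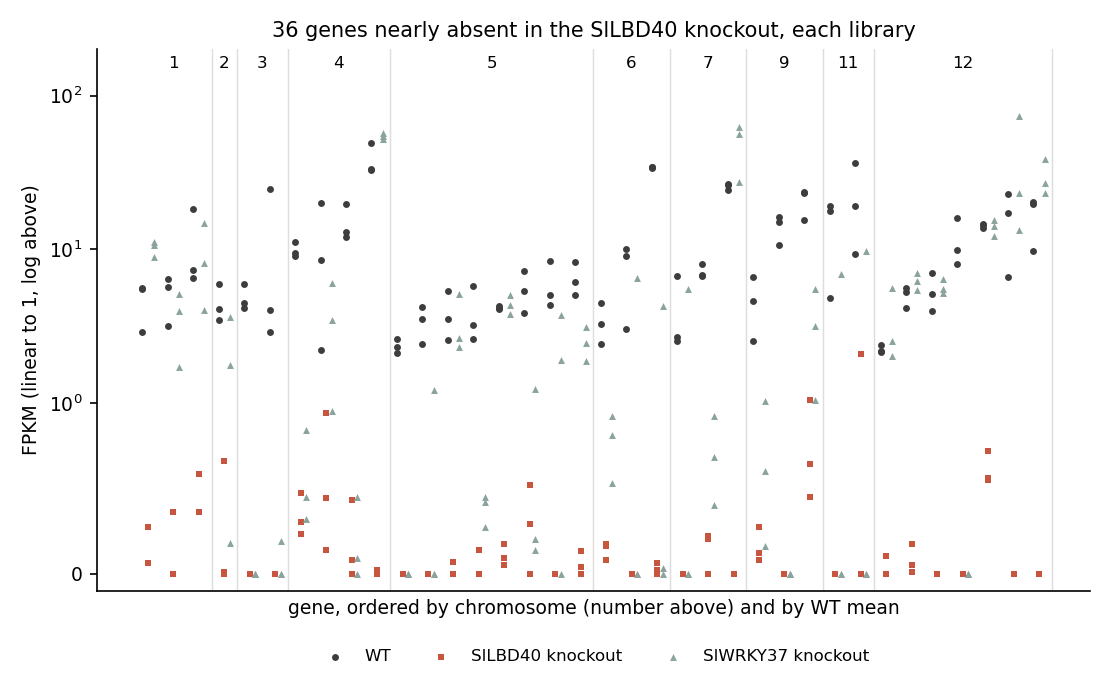
Points give each library of WT, the SlLBD40 knockout and the SlWRKY37 knockout, in FPKM (linear up to 1, log above), for 36 genes nearly absent in the SlLBD40 knockout, ordered by chromosome. The WT points lie at 2 or above by the criterion, and 6 of the 7 genes of chromosome 12 also read at least 2 in every SlWRKY37 knockout library.

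Going up from near absence, Zinc finger protein on chromosome 11 (copy 6) read 0, 0 and 0.14 in WT and 26.4, 15.6 and 12.2 in the knockout (log2 change 4.12 ± 0.27, limma adjusted p = 3.16e-05). ATP-dependent DNA helicase† on chromosome 4 read 0.23, 0.77 and 0 in WT and 11.7, 10.2 and 5.08 in the knockout (log2 change 2.88 ± 0.32, limma adjusted p = 3.33e-04). The major latex allergen Hev b 5-like gene on chromosome 3 was present in both, at 11.3, 33.2 and 16.8 in WT and 176, 179 and 227 in the knockout (log2 change 3.31 ± 0.41, limma adjusted p = 5.73e-04).

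Of 1033 tested RNA genes, which code for no protein, 119 rose and 168 fell, 27.8% against 37.8% of protein-coding genes, with a median log2 change of -0.13 against -0.02 for protein-coding genes; the difference between the kinds was not tested. A pair of RNA genes with readable IDs on chromosome 12 went opposite ways: Solyc12r057820.1 rose from 0.46, 0.89 and 0.19 to 33.7, 34.2 and 43.9 (log2 change 4.68 ± 0.60, limma adjusted p = 6.38e-04), and Solyc12r057920.1 fell from 13.8, 14.3 and 14.7 to 0.56, 0.72 and 0.55 (log2 change -3.24 ± 0.14, limma adjusted p = 2.80e-06).

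The longest runs of tested genes called in one direction held 7 genes each. One, on chromosome 6, rose and includes a histone H2B and 3 histone H4 genes; the other, on chromosome 7, fell and includes a 60S ribosomal protein L7 and the histone methyltransferase ASHH1. A run of 6 on chromosome 3 rose and holds 2 lipid-transfer type proteins beside 4 xyloglucan endotransglucosylases. No test of the runs was made, and 37.2% of all genes were called.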

How the data were processed

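RNA was taken from tomato seeds after 6 h of imbibition and made into SMARTER mRNA-Seq libraries, per the labels' protocols, with 3 libraries each of WT, the SlLBD40 knockout and the SlWRKY37 knockout. The submitters' processing notes name TopHat2, HISAT2, StringTie and Cufflinks; they give no versions, and neither the genome build nor the annotation is given in the sources used here. The authors deposited 1 table of expression values, taken here as FPKM from the tools and the values, although TPM over a larger set of genes is not excluded. The column of WT replicate 1 touches the gene name column in the deposited table and was read by character position.

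Values were turned into log2(value + 1). Genes averaging 1 or more across the 9 libraries were tested with limma 3.58.1 (trend) in R 4.3.3, with genotype as the only term, all 9 libraries in the fit and Benjamini-Hochberg adjustment (threshold 0.05). Fold changes on this scale understate the change of low genes. Gene lists were drawn by words in the descriptions, and their summed shares were compared by two-sided exact permutation tests. The fit was tested on simulated data. The members and lists were chosen with earlier results of these data known, and 8 lists were added after the values were seen.

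Genes were named by rule: the LOB domain genes; the 8 called genes in each direction with the largest log2 change and the 6 with the largest change of level; in each list the most abundant member and up to 2 called in each direction by adjusted p; genes at 0 in one group and at 5 or more in the other; the longest runs of neighbours; and the steadiest abundant genes. IDs are shortened, and 0 genes of the reference table matched by ID. No libraries held identical values, but 22 tested genes share all values with another and are uncertain. The alternatives covered pseudocount, filter, scaling, fit and leaving out each library. Replicate numbers were checked for pairing and did not pair the libraries.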

Additional observations from a re-analysis of the deposited data

How the results depend on the processing

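Under 15 alternatives no called gene was called in the opposite direction. With only the 6 compared libraries in the fit 8322 genes were called, and with quantile normalization 7984. The count changed by at least 1 on the log2 scale was 2605 with a pseudocount of 0.1 and 1369 with a minimum mean of 5, against 2005. Leaving out 1 library at a time gave 4533 to 5739 called genes, 2192 to 2587 of them higher and 2107 to 3297 lower. Without knockout replicate 1 the lower count was 2107 and the total 4533, without WT replicate 2 the lower count was 2294, and without knockout replicate 2 the higher count was 2192; fewer samples enter each of these fits. With the replicate number as a block, 6040 genes were called (2884 higher, 3156 lower), but the correlation of same-numbered deviations lay between -0.105 and 0.063, so the numbers were not taken as pairs. Of 76 lists, 60 medians kept their sign under every alternative and 16 did not; with no filter on low values, which adds members near 0, the medians of the xyloglucan, pectin, expansin and H3 lists were nearer 0. The depth behind each value is unknown.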
